A study of Homo sapiens with 6 samples.

Results

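The genes described here are the clustered and linker histone genes: every row of the count table whose symbol starts with H2AC, H2BC, H3C or H4C and a digit, or with H1- and a digit. The rule used names and no measured value. It took 57 of the 17081 rows, of which 56 are described: 7 H1, 13 H2A, 15 H2B, 10 H3 and 11 H4 genes. Counts, sums and shares over members refer to these 56. RNA came from 6 tumour samples grown from the established human line DMS114, derived from small cell lung cancer, in a model of sciatic nerve invasion. The labels assign 3 samples to the proximal and 3 to the distal invaded region, and all 6 share the line, with no further treatment or genotype named. The sources used here give no host, animal or day. Whether each replicate is an animal of its own is not stated either, so a p-value below describes the scatter among these libraries, and that scatter could be technical. Libraries were made from poly(A) RNA with a TruSeq kit.

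Histones package DNA: H2A, H2B, H3 and H4 form the core of the nucleosome, and H1 linker histones bind where DNA enters and leaves it. Most genes of the clusters are replication-dependent, which means that they are transcribed in S phase, when new DNA has to be packaged. Their mRNAs have no introns and as a rule end in a conserved stem-loop instead of a poly(A) tail. The stem-loop is bound by SLBP, and the cut just after it is guided by the U7 snRNP. A selection for poly(A) RNA therefore takes up little of such mRNA. Some members are known to make forms with a poly(A) tail: the replacement linker histone H1-10, and H1-2, H2AC6, H2BC4, H2BC5, H2BC12 and H2BC21.

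The stem-loops are printed because they set the members apart from other genes in a poly(A) library. In GENCODE 29 transcripts (GRCh38), 23 of the 56 members held a match to the 16-base histone stem-loop, and in each of these the match lay after the longest open reading frame. Among the 19628 protein-coding genes outside these 56, 20 held one, or 0.102%. That outside set still holds other histone genes, such as HIST2H4B, so the share is not one for genes other than histones. There were 5 different stem-loops among the 23 members. An example of each follows, 5′ to 3′ on the strand of the gene, with the stem-loop in capitals and 5 flanking bases on each side in lower case.
H2AC6: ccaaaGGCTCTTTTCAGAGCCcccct
H2BC4: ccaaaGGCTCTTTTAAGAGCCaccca
H4C8: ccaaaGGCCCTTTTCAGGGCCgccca
H4C9: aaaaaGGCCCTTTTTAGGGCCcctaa
H2AC11: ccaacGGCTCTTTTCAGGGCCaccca
The form of H2AC6 was found in 12 members, all of them H2A, H2B or H3 genes. H2BC4 shared its form with H2BC5, H2BC7 and H3C8. Those of H4C8 and H4C9 were found in 4 and 2 members, all H4 genes, and the form of H2AC11 in that gene alone. Of the others, 26 had transcript models that hold only the coding part, so that no stem-loop could be looked for, and 7 had longer models without a match. These 7 were H1-4, H1-6, H1-10, H2BC11, H3C6, H3C12 and H4C3.

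Histone reads were a small part of each library. Read counts per library totalled 16171106 to 26116191, and the 56 members together took between 0.0207% and 0.0237% of them. The level used below is CPM, the read count scaled to a library size that was corrected by TMM (a trimmed mean of log ratios). It is not divided by gene length, so it compares libraries and not genes. Summed over the members it was 208.7 CPM in proximal 1, 211.9 in proximal 2 and 234.3 in proximal 3, against 234.0, 227.1 and 217.4 in distal 1, 2 and 3. Proximal 1 stood lowest and proximal 3 highest, and the distal libraries lay between them. Of the 56 members, 35 had at least 1 count in every library, 20 had a mean of at least 1 CPM and 6 of at least 10 CPM. At the other end, 14 members had 10 or fewer counts summed over all 6 libraries. A count of 0 allows up to 3 counts, which was 0.116 CPM in the deepest library and 0.183 in the shallowest. That limit covers counting error only, since these are reads without molecular identifiers.

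**Figure D1:**
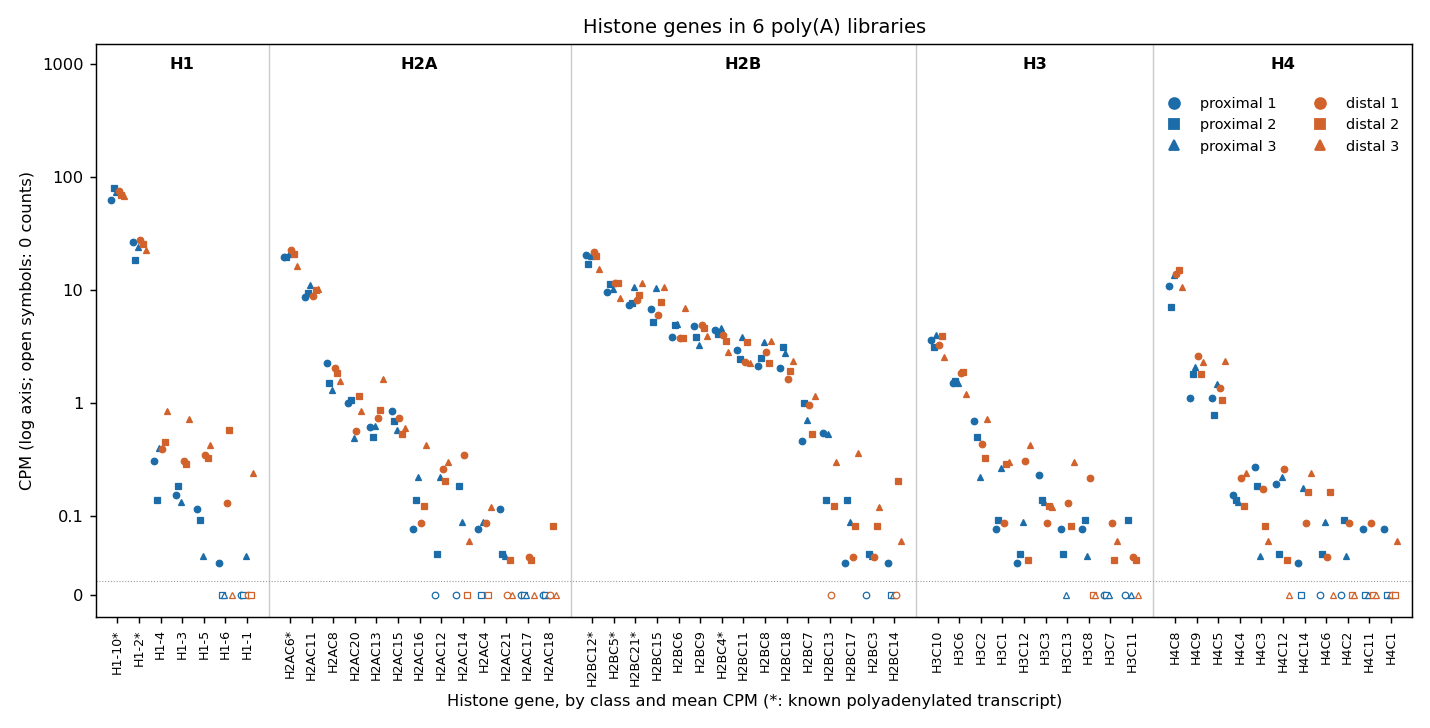
CPM of the 56 histone genes in each of the 6 libraries on a log axis, by class and in order of mean CPM, with open symbols at the bottom for 0 counts and asterisks on the 7 genes with known polyadenylated transcripts. H1-10 stands above the others shown at 62.2 to 80.3 CPM, the H2B genes decline gradually, and most H3 and H4 genes lie below 1 CPM.

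The counts were concentrated in few members. H1-10 alone held 32.2% of their counts, and with H1-2 and H2AC6 the share was 52.2%. By class, H1 took 43.6% of the counts, H2B 30.9%, H2A 15.5%, H4 7.18% and H3 2.82%. The 7 members with known polyadenylated forms held 71.4%, and the other 49 held 28.6%. These are shares of reads, and longer transcripts give more reads. The split follows a list of known forms, so the other 49 are not shown to lack a tail. Some of them, such as H4C8, H2AC11 and H2BC15, have the letters AATAAA in the last 40 bases of a GENCODE transcript. Others, such as H2BC8 and H4C9, do not. Levels per length depend on the gene model, and exons in GENCODE 29 were set beside the gene spans of RefSeq (GRCh38.p14). For H1-10 both lengths gave close values, 47.5 and 47.3 CPM per kb. For several core histone genes they did not. H4C8 had 5.50 CPM per kb over 2.163 kb of GENCODE exons and 29.1 over a RefSeq span of 0.409 kb. The annotation that was counted is not given in the sources used here, so no order per length is read among those genes.

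Counts were set beside the annotated transcript form. In 16 members a GENCODE transcript runs on for at least 100 bases past the stem-loop, and the median of their counts over all 6 libraries was 497.5. Of these, 14 passed the filter on low counts described below. H3C8 with 10 counts and H4C14 with 15 did not, and only 5.1% of the 100-base windows of H4C14 are unique among transcripts. In the 7 members whose model stops nearer the stem-loop the median was 37. H2BC5 stood apart there with 1407 counts, and 1 of its 2 GENCODE transcripts has no stem-loop match. The median was 16.5 in the 26 with a coding part only. The exceptions in that last set were H1-2 with 3237 counts and H2BC12 with 2572, both known to make polyadenylated forms. Among the 7 longer models without a match the median was 54, with H1-10 at 9520 and H1-6 at 18. A longer model collects more reads, and these medians are a description.

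**Figure D2:**
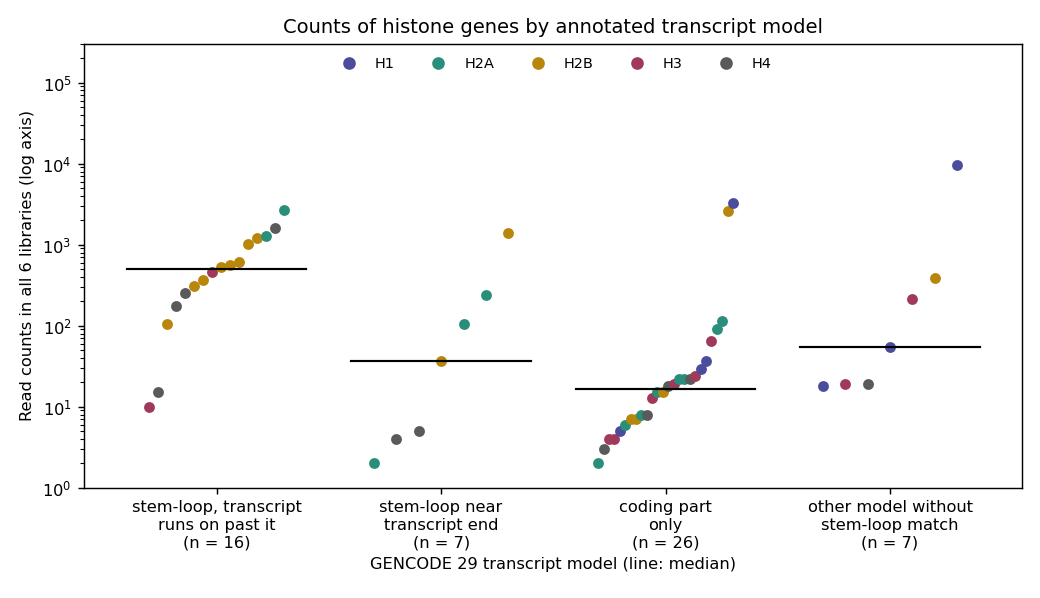
Read counts over all 6 libraries on a log axis for each of the 56 members, grouped by transcript model in GENCODE 29 and coloured by histone class, with a line at each median. The medians are 497.5, 37, 16.5 and 54 from left to right, and the 2 highest points of the coding-only group are H1-2 and H2BC12.

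Distal and proximal tumours were compared by edgeR's quasi-likelihood test over the whole table, with p-values adjusted by the Benjamini-Hochberg method at 0.05. The question is which genes differ between the far and near invaded regions. A filter on low counts (edgeR's filterByExpr) kept 13382 genes and 25 of the 56 histone members. None of the 25 was called in either direction, against 0 of 13382 genes (0%), and the smallest adjusted p among them was 0.9997. At an unadjusted p under 0.05 the test gave 0 histone genes and 178 genes in all (1.33%). DESeq2 called 0 histone genes and 1 gene in the table (0.00749%), which was EDIL3, and limma-voom called 0 (0%). Of the 25, 16 were on the higher and 9 on the lower side in distal. Their median log2 fold change was 0.07, and it was 0.015 without distal 3 and 0.039 without proximal 1. The median over all genes tested was 0.0045, with 51.6% on the higher side. For 17 of the 25 the 95% interval stayed inside a 2-fold change either way, against 84% of all genes tested. Fewer cells of a type and less RNA per cell cannot be told apart in these bulk samples.

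**Figure D3:**
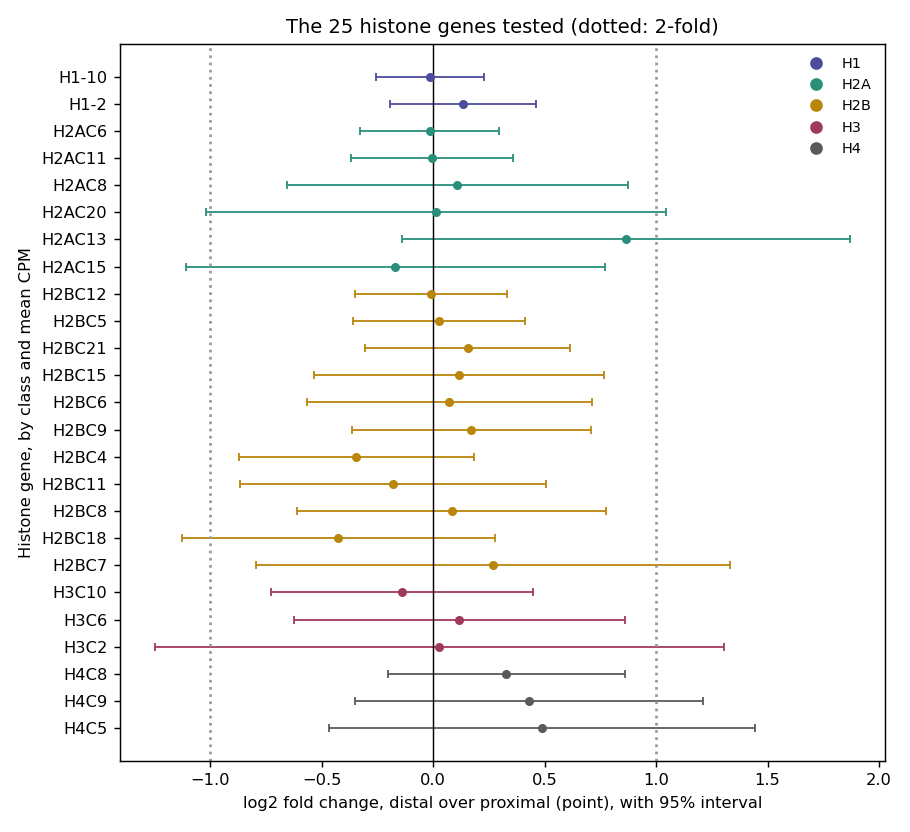
Log2 fold change of distal over proximal for the 25 histone genes tested, with 95% intervals from edgeR's fit, ordered by class and mean CPM. Every interval covers 0, and 17 lie within the dotted lines that mark a 2-fold change.

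Some libraries differed in the RNA of other tissues. Of 12 markers of skeletal muscle all were in the table, and their summed level was 6.88, 31.6 and 281 CPM in proximal 1, 2 and 3 and 3.88, 20.96 and 1928 in distal 1, 2 and 3, so that distal 3 and proximal 3 stood far above the rest. Myosin heavy chain MYH1 ranged from 0 to 398 CPM. Of 9 Schwann cell markers 8 were in the table, at 64.8 to 160 CPM in proximal and 76.9 to 125 CPM in distal, with S100B at 0 to 0.0412 CPM. Fibroblast markers (6 of 6) summed to 5407 to 6119 CPM in proximal and 4525 to 5592 in distal. COL3A1 gave most of this sum, at 3722 to 5103 CPM. COL1A1 had another order, with 62.2 CPM in proximal 3 and 38.2 in distal 3 against 7.70 to 18.9 elsewhere. COL1A2 was also highest in these libraries, at 40.2 and 24.9, and PDGFRA was at 0.244 to 1.28. Endothelial markers (6 of 6) summed to 3.55 to 4.62 CPM in proximal and 4.12 to 6.95 in distal. EGFL7 gave most of that, at 2.83 to 5.61, while PECAM1 was at 0 to 0.0462 and KDR at 0.116 to 0.793. Leukocyte markers (8 of 8) summed to 1.06 to 2.51 CPM in proximal and 1.48 to 2.01 in distal. Of markers used for such lines, YAP1 was at 167 to 187 CPM and synaptophysin (SYP) at 56.9 to 63.8, while the tuft cell regulator POU2F3 was at 0 to 0.247. RB1 was at 91.2 to 115 CPM, CHGA at 6.34 to 7.57, KRT18 at 1.89 to 4.27 and INSM1 at 0.837 to 1.46. GRP was at 0 to 0.783 CPM and KRT8 at 0 to 0.122. Other markers stood apart in distal 3: NEUROD1 was at 6.47 CPM there against 0.0462 to 0.618 in the other libraries, NCAM1 at 3.90 against 0.352 to 0.988, and EPCAM at 28.0 against 6.51 to 17.2. Among the 25 tested members distal 3 was the highest library for 8 and the lowest for 7. For the 7 with known polyadenylated forms it was the lowest in 4 and the highest in 1, and for the other 18 the lowest in 3 and the highest in 7. The part of muscle RNA in these differences was not tested.

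H1-10 (chr3:129314771-129316286, minus strand, GRCh38.p14), a replacement linker histone with a polyadenylated mRNA, was at 62.2, 80.3 and 73.7 CPM in proximal and 75.3, 70.1 and 68.5 CPM in distal. The distal values fell inside the proximal range, and the interval of the log2 fold change ran from -0.26 to 0.23. By mean CPM, which favours long transcripts, it ranked 3587 of the 17081 rows. A neighbouring antisense RNA shares sequence with it, and 89.3% of its 100-base windows were unique. H1-2 (chr6:26055740-26056470, minus strand) is a replication-dependent linker histone that also makes a tailed mRNA. Its levels were 26.6, 18.4 and 24.1 CPM in proximal and 27.6, 25.4 and 22.7 in distal. Proximal 2 was lowest and distal 1 highest, with a log2 fold change of 0.13 (SE 0.15) that was -0.0051 without proximal 2. In proximal 2 H1-10 was thus at its highest and H1-2 at its lowest.

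The other replication-dependent linker histones were near the limit of detection. H1-4 had 8, 3 and 9 counts in proximal and 9, 11 and 14 in distal, and the groups shared the value 9. H1-3 had 4, 4 and 3 counts in proximal against 7, 7 and 12 in distal, or 0.135 to 0.185 CPM against 0.288 to 0.732 CPM. H1-5 had 3, 2 and 1 counts in proximal against 8, 8 and 7 in distal, or 0.0449 to 0.116 CPM against 0.329 to 0.427 CPM. Every distal library thus stood above every proximal one for H1-3 and H1-5. Both fell below the filter. In a fit without it, the log2 fold change was 1.42 (SE 0.76) for H1-3 and 2.03 (SE 0.82) for H1-5, with adjusted edgeR p of 0.999 for each. H1-1 had 0, 0 and 1 counts in proximal and 0, 0 and 4 in distal. In a grouping made after the values were seen, these 4 genes summed to 15, 9 and 14 counts in proximal and 24, 26 and 37 in distal, with no overlap. H1-6, the linker histone of spermatocytes, had 1, 0 and 0 counts in proximal and 3, 14 and 0 in distal. Its 14 counts in distal 2 correspond to 0.576 CPM with an exact Poisson interval of 0.315 to 0.967 at 95%.

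Among the H2A genes, H2AC6 (chr6:26124172-26124690, plus strand) led. It stood at 19.7, 19.6 and 20.96 CPM in proximal and at 22.5, 20.7 and 16.2 in distal. Distal 1 was highest and distal 3 lowest, and the log2 fold change was -0.02 (SE 0.14). H2AC11 (chr6:27133043-27133535, plus strand) was the second H2A gene by CPM. Its values were 8.78, 9.42 and 10.998 CPM in proximal and 8.90, 10.01 and 10.2 CPM in distal. It varied little, with a coefficient of variation of 8.72% over the 6 libraries. H2AC8 was at 2.28, 1.52 and 1.30 CPM against 2.07, 1.85 and 1.59, and H2AC20 at 1.01, 1.06 and 0.494 CPM against 0.573, 1.15 and 0.854. The groups overlapped for both of them.

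H2AC13 (chr6:27808173-27808667, plus strand) was the tested member with the lowest p. It was at 0.619, 0.508 and 0.628 CPM in proximal and at 0.749, 0.865 and 1.65 CPM in distal. All distal libraries stood above all proximal ones, with distal 3 far above the other 2. The log2 fold change was 0.86 (SE 0.45), with an edgeR p of 0.0841, an adjusted p of 0.9997 and a 95% interval of -0.14 to 1.87. Without distal 3 it was 0.46. The gene had 11 to 27 counts in a library, and 42.3% of its 100-base windows were unique among transcripts, so its reads could have been split with a near-identical H2A gene. The other 8 H2A genes included H2AC15, at 0.535 to 0.851 CPM, and 7 below the filter with 2 to 22 counts in all. H2AC18 had 2 counts, both in distal 2, and none of its 100-base windows was unique.

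H2B was the class with the most members above the filter, 11 of 15. H2BC12 (chr6:27138293-27146858, minus strand) was at 20.3, 16.9 and 20.2 CPM in proximal and 21.6, 19.9 and 15.5 CPM in distal. Its log2 fold change was -0.01 (SE 0.15), and the distal libraries held both the highest and the lowest value. Of its 100-base windows 71.6% were unique among transcripts. H4C9 lies wholly inside its span on the other strand. The strand setting of the counting is not given in the sources used here, so reads of the pair may not have been kept apart. H2BC5, another polyadenylated member, was at 9.59, 11.4 and 10.2 CPM in proximal and 11.6, 11.5 and 8.60 in distal. H2BC21 (chr1:149884459-149886682, minus strand) was at 7.46, 7.71 and 10.7 CPM in proximal and 8.24, 9.10 and 11.5 in distal. Here the libraries numbered 3 were the high ones in both groups, and the log2 fold change was 0.15 (SE 0.21). That value ranged from 0.0072 without distal 3 to 0.34 without proximal 3, with 0.054 without proximal 1 and 0.078 without proximal 2, and it was 0.19 without proximal 3 and distal 3.

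H2BC15 and H2BC6 showed a like order. H2BC15 was at 6.85, 5.26 and 10.5 CPM in proximal and 6.08, 7.83 and 10.7 in distal, so that proximal 3 and distal 3 were highest. H2BC6 was at 3.83, 4.89 and 5.03 CPM in proximal and 3.79, 3.79 and 6.95 in distal, again with distal 3 highest. These 2 libraries are those with the highest muscle markers, and the part of muscle RNA was not tested. Without them, H2BC6 had a log2 fold change of -0.20, against 0.07 with all libraries. In H2BC4 (chr6:26113170-26123926, minus strand), by contrast, distal was lower. It was at 4.49, 4.11 and 4.67 CPM in proximal and 4.01, 3.54 and 2.87 in distal, without overlap. The log2 fold change was -0.34 (SE 0.24), with an edgeR p of 0.176 and an adjusted p of 0.9997, and it was -0.23 without distal 3 and -0.19 without proximal 3 and distal 3. H2BC18 (chr1:149782689-149812370, minus strand) had the next lowest p on the lower side. It was at 2.05, 3.14 and 2.78 CPM in proximal and 1.63, 1.94 and 2.38 in distal. Proximal 1 lay inside the distal range, so the groups overlapped, and the log2 fold change was -0.43 (SE 0.32, edgeR p 0.206 unadjusted). The remaining tested H2B genes, H2BC7, H2BC8, H2BC9 and H2BC11, ranged from 0.464 CPM in H2BC7 to 4.93 CPM in H2BC9. The 4 below the filter, H2BC3, H2BC13, H2BC14 and H2BC17, had 7 to 37 counts in all.

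H3 was the class with the fewest reads. H3C10 (chr6:27810051-27810536, plus strand) led, with 3.64, 3.14 and 4.00 CPM in proximal and 3.26, 3.91 and 2.56 in distal. H3C6 followed at 1.51, 1.57 and 1.53 CPM in proximal and 1.85, 1.89 and 1.22 in distal. In H3C6 distal 1 and 2 were above and distal 3 below the proximal values. H3C2 was at 0.696, 0.508 and 0.224 CPM against 0.440, 0.329 and 0.732. The other 7 H3 genes had 4 to 24 counts in all, among them H3C1 with 2, 2 and 6 counts against 2, 7 and 5, and H3C12 with 1, 1 and 2 counts against 7, 1 and 7. The genes of this class encode nearly the same protein, and these values describe gene copies and not the supply of H3.

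H4 genes all encode the same protein. H4C8 (chr6:26285126-26285534, minus strand), whose stem-loop is printed above and whose transcript model runs on 1655 bases past it, was at 10.9, 7.15 and 13.6 CPM in proximal and 13.9, 15.1 and 10.7 in distal. Proximal 2 was lowest, distal 2 highest, and the groups overlapped. The log2 fold change was 0.33 (SE 0.24), with an edgeR p of 0.198 and an adjusted p of 0.9997. Without proximal 2 it was 0.11, and without proximal 3 and distal 3 it was 0.68 with an adjusted p of 0.9991. H4C9 was at 1.12, 1.80 and 2.11 CPM against 2.64, 1.81 and 2.32, and H4C5 at 1.12, 0.785 and 1.48 CPM against 1.37, 1.07 and 2.38. The log2 fold changes were 0.43 (SE 0.35) for H4C9 and 0.49 (SE 0.43) for H4C5. The first was 0.20 without proximal 1 and the second 0.11 without distal 3 and 0.29 without proximal 2. The other 8 H4 genes had 3 to 22 counts in all. H4C4, the highest of them, had 4, 3 and 3 counts in proximal and 5, 3 and 4 in distal, and H4C3 had 7, 4 and 1 against 4, 2 and 1.

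Summed by class, the H1 genes stood at 95.6 ± 5.43 CPM (SD, n = 3) in proximal and 98.2 ± 5.40 in distal, the H2A genes at 34.1 ± 1.34 and 34.7 ± 2.33, and the H2B genes at 68.4 ± 6.70 and 69.1 ± 1.04. The H3 genes stood at 6.12 ± 0.342 and 6.34 ± 0.534 CPM, and the H4 genes at 14.0 ± 3.86 and 17.8 ± 1.60. All 5 differences were smaller than the larger SD of the pair. In H4, proximal 2 was low at 10.2 CPM, and the other 2 proximal libraries, at 13.9 and 18.0, overlapped the distal range of 15.98 to 18.9. Over all members the log2 ratio of the summed CPM, distal over proximal, was 0.05 (0.015 without proximal 1, 0.022 without distal 1, 0.029 without proximal 2 and 0.105 without proximal 3), and over the 49 without a known polyadenylated form it was 0.15.

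**Figure D4:**
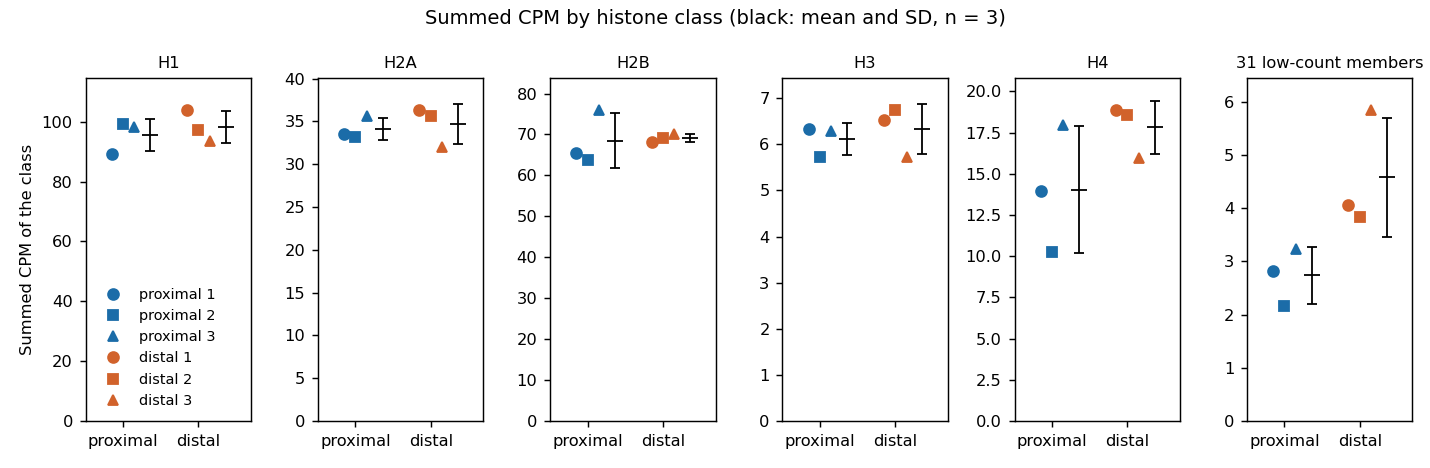
Summed CPM by histone class, and of the 31 members below the low-count filter, for each proximal (blue) and distal (orange) library, with mean and SD (n = 3) in black and axes that start at 0. The groups overlap for every class, while the 31 low-count members sum to 2.17 to 3.23 CPM in proximal and 3.83 to 5.86 CPM in distal.

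The 31 members below the filter were summed as well, with the sum formed after their values had been seen. They had 73, 47 and 72 counts in proximal and 92, 93 and 96 in distal, or 2.82, 2.17 and 3.23 CPM against 4.05, 3.83 and 5.86 CPM. All distal libraries were above all proximal ones. A sum over members chosen for low counts carries no test here. Gene by gene, 8 of the 56 members (14.3%) showed no overlap between groups, against 6.03% of all 17081 rows. Of the 8, 5 were higher in distal (H1-3, H1-5, H2AC13, H3C7 and H3C13; 3.15% of all rows) and 3 lower (H2AC21, H2BC4 and H3C3; 2.88%). Among the tested genes it was 2 of 25, against 6.29% of all genes tested, namely H2AC13 on the higher side (3.19% of all) and H2BC4 on the lower side (3.1%). The other 6 were below the filter, with 4 to 37 counts in 6 libraries. In H3C7, for example, no proximal library had a count and the distal ones had 2, 1 and 1. Each of these is under the 3 counts that a 0 in a single library allows, a limit that does not cover the group as a whole. Counts this low carry wide errors: of 30 members with under 50 counts in all, 19 varied between libraries by less than 2 times the variance that counting error gives.

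H2A and H2B genes often lie head to head with a short stretch between their start sites. By RefSeq starts, 9 such pairs were in the table, 194 to 248 bases apart. The values that follow are read counts, not divided by length. In the pair of H2BC12 and H2AC12 the counts were furthest apart. H2BC12 had 254 to 526 counts in each library and H2AC12 had 0 to 6. Of 50-base windows, 25.9% were unique in H2BC12 and 96.2% in H2AC12, and of 100-base windows 71.6% and 100%. Reads of H2BC12 could thus have been split with near-identical genes. Per length the gap depended on the gene model. Over GENCODE exons (0.381 and 0.387 kb) it was 50.1 against 0.450 CPM per kb, and over RefSeq spans, with 8.566 kb for H2BC12, it was 2.23 against 0.381 CPM per kb. Of the pair, H2BC12 is the one in the list of genes known to make a tailed mRNA. In the pair of H2AC6 and H2BC4, both known to be polyadenylated, H2AC6 had 266 to 511 counts and H2BC4 47 to 116. H2BC21 had 167 to 239 against 11 to 28 in H2AC20, and H2BC15 had 114 to 234 against 10 to 22 in H2AC15. H2AC11 had 167 to 245 against 37 to 85 in H2BC11, and H2AC8 and H2BC8 were closest, with 26 to 59 and 55 to 77 counts. The last 3 pairs were H2AC13 and H2BC13, with 106 and 37 counts in all, H2AC14 and H2BC14, with 15 and 7, and H2AC17 and H2BC17, with 2 and 15. Neither gene class was the higher one throughout.

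**Figure D5:**
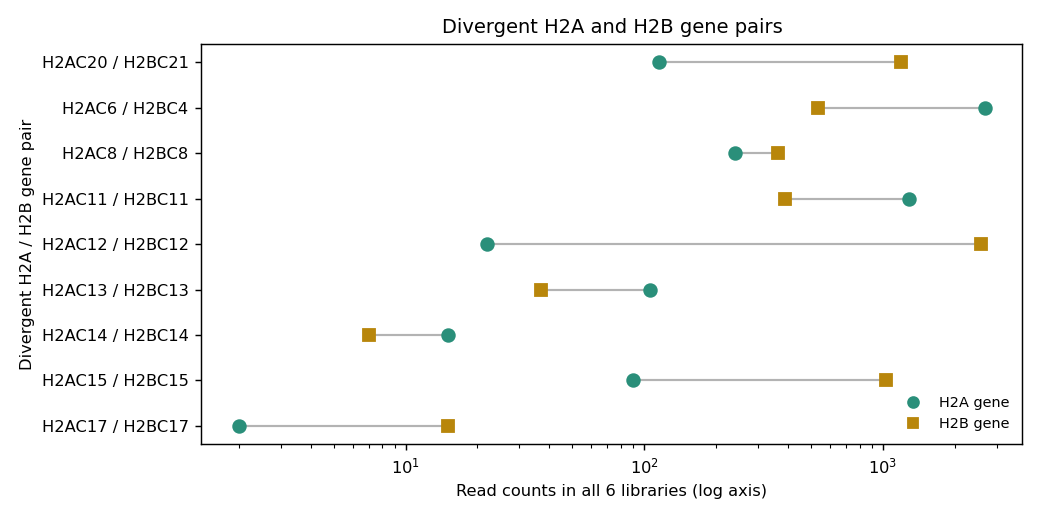
Read counts over all 6 libraries on a log axis for the 9 divergent H2A (circles) and H2B (squares) pairs, joined by a line. The H2B gene is the higher one in 5 pairs, and the gap is widest for H2BC12, at 2572 counts, and H2AC12, at 22.

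The stretch between the starts of H2BC12 and H2AC12 is printed because both genes use it while their counts differ most. It is chr6:27146859-27147105 (RefSeq, GRCh38.p14), 247 bases, written 5′ to 3′ on the minus strand, so that H2BC12 starts just after its right end and H2AC12 leaves from its left end on the other strand. Capitals mark the letters ATTTGCAT (the octamer bound by POU2F1), CCAAT or its reverse complement ATTGG, and TATAAA or its reverse complement TTTATA. At the left end the last 2 overlap.
H2BC12-H2AC12: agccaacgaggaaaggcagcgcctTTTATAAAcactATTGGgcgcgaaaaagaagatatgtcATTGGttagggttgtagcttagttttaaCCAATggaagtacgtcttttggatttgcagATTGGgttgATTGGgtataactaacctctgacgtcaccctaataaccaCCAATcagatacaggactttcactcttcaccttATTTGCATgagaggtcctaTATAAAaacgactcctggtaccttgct
TATAAA letters begin 27 bases before the H2BC12 start, and 30 bases before the H2AC12 start on its strand. The octamer lies 46 bases before H2BC12, on its strand. CCAAT letters occur 2 times on the strand of H2BC12 and 4 times on that of H2AC12. Each gene thus has TATA letters close to its start.

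Across the classes these motifs were spread unevenly. Promoter sequences (250 bases before to 50 after the RefSeq start, both strands searched) were at hand for 51 members. ATTTGCAT was in 12 of 15 H2B and 9 of 12 H2A promoters and in 0 of the 7 H1, 8 H3 and 9 H4 promoters. Of 35116 promoters of all genes, 1.77% held it. CCAAT was in 43 of the 51, against 34.6% of all promoters, and reached all 12 H2A, 15 H2B and 8 H3 promoters, while 2 of 9 H4 promoters held it. TATAAA was in 35 of the 51, against 11.5% of all. Neighbouring pairs share part of these windows, so the members are not independent. A match describes letters and not a bound site.

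The mRNAs of proteins that make and end histone mRNA were detected in all libraries. Of 24 genes for histone transcription and 3′ end processing all were tested, 11 on the higher and 13 on the lower side in distal, with none called (0%) and a median log2 fold change of -0.01. SLBP was at 84.5 to 98.7 CPM, NPAT, the coactivator of histone genes, at 39.2 to 54.5, and LSM11 of the U7 snRNP at 28.8 to 37.6. The 2 lowest p belonged to LSM11 (log2 fold change -0.15, SE 0.11, edgeR p 0.196, unadjusted) and CPSF3, the nuclease that cuts at the stem-loop (-0.11, SE 0.08, p 0.202). S phase genes (26) were called in 0 cases, with 20 on the higher side and a median of 0.04. Their lowest p was that of the primase subunit PRIM1 (0.27, SE 0.11, unadjusted p 0.0402), followed by the cyclin CCNE2 (0.13, SE 0.10). No gene of these 2 lists passed the test.

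Replacement and variant histones outside the clusters are mostly made through the cell cycle from polyadenylated mRNAs, and they took more reads than the 56 members. Of 18 such genes listed, 13 were analysed, and they summed to 1416 to 1432 CPM in proximal and 1460 to 1555 CPM in distal, without overlap. Distal 3 was highest at 1555 CPM, with 1460 and 1465 in distal 1 and 2, and the sum carries no test. Of the 13, 11 were on the higher and 2 on the lower side (H2AW and H2BU1), with none called and a median log2 fold change of 0.06. H2AZ1, the replacement H2A at promoters, had the lowest p, at 291 to 342 CPM (log2 fold change 0.15, SE 0.08, unadjusted edgeR p 0.0844), and H3-3A, a gene for histone H3.3, came next at 174 to 211 CPM (0.12, SE 0.08). Of 19 histone chaperones tested, 7 were on the higher side and none was called. The lowest p were those of CABIN1 (-0.24, SE 0.12) and UBN1 (-0.18, SE 0.09), both partners of HIRA in depositing H3.3. Of 27 RNAs known to have no poly(A) tail, such as RMRP and RN7SK, 0 were in the count table, so none could be set beside the histone genes. Of 6 histone genes listed for testis or oocyte, H1-1 and H1-6 were analysed, with the counts given above. H1-1 is also among the replication-dependent linker histones summed above, so its place in this list does not make it a germ cell histone.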

How the data were processed

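The authors deposited a table of raw counts, unnormalized, with 1 column for each of 6 libraries. Trimmomatic 0.39, STAR 2.7.3a and featureCounts 2.0.1 are named, per the submitters' processing notes, as is GRCh38. Annotation, strand setting and treatment of host reads were not given in the sources used here, so host reads, or reads of near-identical histone copies, could be part of a count or missing from it. Per the labels' protocols, RNA had an integrity number above 7.

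The deposited counts were fitted with edgeR 4.0.16 (R 4.3.3): filterByExpr, TMM, the robust quasi-likelihood test with the group as the only term, and Benjamini-Hochberg adjustment over 13382 genes. SE is the log2 fold change over the square root of F. Alternatives used DESeq2 1.42.0, limma 3.58.1 (voom), other scalings and filters, a replicate block and left-out libraries. Same-numbered libraries deviated together with correlations of 0.375, -0.123 and 0.183, and differently numbered ones with -0.327 to 0.148. These values do not settle whether the numbers pair samples, and the main fit did not treat them as pairs. No 2 libraries agreed within sampling noise. The fit was tested on simulated data.

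Stem-loops, exon lengths and windows came from GENCODE 29, spans and promoters from RefSeq (GRCh38.p14). The 56 members described matched both, 3 by an older symbol; 1 of the 57 is not reported here and enters no sum or count. Named were the 5 highest members of each class, the 2 lowest p on each side, those with known polyadenylated forms and those with 1 library over 3 times the median. The members and lists were chosen with earlier results of these data known.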

Additional observations from a re-analysis of the deposited data

How the results depend on the processing

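No histone gene was called under any of the 16 other settings, and the smallest adjusted p of a named member in any of them was 0.998. Over all genes DESeq2 called 1 and the fits with a library left out called 0 to 1, in each case EDIL3; the fit with a call was that without distal 1. The median log2 fold change of the tested members, 0.07, was 0.14 without a low-count filter, 0.015 to 0.070 with each library left out in turn (lowest without distal 3) and 0.12 without proximal 3 and distal 3, a fit chosen after seeing the data. With the replicate block it was 0.054, and that fit called 0 genes and changed no call. Against 0.05 in the main fit, the log2 ratio of summed CPM was 0.15 without the members with known polyadenylated forms. It was 0.13 without proximal 3 and distal 3, and 0.015 to 0.105 with each library left out in turn. Of 20 named members with values under these settings, 8 held their sign in all. H2AC11 turned to 0.0099 with upper-quartile scaling and 0.0039 with library totals, H2BC12 to 0.0047 with upper-quartile scaling, and H2BC6 to -0.015 with limma-voom. Without proximal 3 and distal 3 the values that turned were 0.029 for H1-10, 0.14 for H2AC6, 0.055 for H2AC11, -0.25 for H2AC20, 0.16 for H2BC12, -0.20 for H2BC6, 0.080 for H3C10 and -0.65 for H3C2. With each library left out in turn, members that turned ranged from -0.12 to 0.069 (H1-10), -0.0051 to 0.24 (H1-2), -0.12 to 0.11 (H2AC6), -0.079 to 0.092 (H2AC11), -0.051 to 0.38 (H2AC8), -0.28 to 0.24 (H2AC20), -0.11 to 0.12 (H2BC12), -0.051 to 0.15 (H2BC5), -0.12 to 0.43 (H2BC15), -0.27 to 0.22 (H2BC6) and -0.32 to 0.42 (H3C2). The cause was not tested. No row of the member list was a pseudogene or antisense RNA, so leaving such rows out could not be run. Where 1 library leaves a group with 2 samples the spread is estimated over all. Below about 50 counts in all, depth limits every statement on a member.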
